A study of Mus musculus with 11 samples.

Results

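Keratins and the genes that build the epidermal barrier were followed in mouse tumours 2 days after an injection of doxorubicin or buffer into the tumour. The members were the genes whose annotated symbol marks them as a keratin, a keratin-associated or keratinocyte differentiation gene, a small proline-rich or late cornified envelope gene, a component of desmosomes, a claudin or 1 of a few named epithelial genes, with a probe detected (detection p under 0.05) on 2 or more of the 11 arrays. They came to 28 of the 10623 genes tested. Their symbols were 2 stress keratins (Krt16, Krt17), 4 keratins of resting epidermis (Krt10, Krt14, Krt15, Krt80), 2 keratins listed with simple epithelia (Krt8, Krt222), 2 other keratins (Krt76, Krt82), 6 cornified envelope and late differentiation genes, 3 desmosomal plakophilins and 9 junction genes. The pattern also met Lce1a1, detected on 1 array, and Cldn34b4, detected on 0 arrays, which were not members. Of 45281 probes, only 16505 carried a gene symbol in the annotation used. Krt5, Krt1, Krt6a, Krt6b, Krt7, Krt18, Krt19 and Trp63 had no probe among these. Neither had Sfn, Perp, Dsp, Epcam, Ivl or the desmogleins and desmocollins, and none of these genes was analysed here.

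Keratins are the intermediate filament proteins of epithelial cells. Basal cells of resting epidermis make Krt14, cells that leave the basal layer turn to Krt10, and the outermost living cells make loricrin and small proline-rich proteins, which transglutaminases link into the cornified envelope. After wounding or other stress, keratinocytes switch on Krt16 and Krt17, which are scarce or absent in resting epidermis between the follicles. Plakophilins hold desmosomes together, claudins seal tight junctions, and E-cadherin (Cdh1) joins epithelial cells.

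All hosts were C57BL/6 mice aged 10 to 12 weeks that carried an MCA 205 fibrosarcoma, a tumour of mesenchymal origin, under the skin. They were wild type (WT, labelled wt) or lacked the formyl peptide receptor gene in the host (KO, labelled FPR1-/-), and tumours of 25 to 45 mm2 were treated with PBS or with doxorubicin (DX) at 2.9 mg/kg in 50 μL of PBS. The groups were WT PBS (n = 3), WT DX (n = 3), KO PBS (n = 3) and KO DX (n = 2). Fpr1 had no probe among the 16505 that carried a symbol in the annotation used, so the genotype label was not checked. The tumour cells came from outside the host, so each sample held tumour and host RNA. The tumour number in the source names differs in every sample, and all samples were taken as 1 line. The labels do not say that replicates came from separate mice, so p-values measure the spread between these samples, which may be technical. Whether a bulk sample held fewer cells of a type or less RNA per cell cannot be told apart.

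Of 45281 probes, 35.7% to 40.2% were detected per array, and the 11 arrays lay on 5 BeadChips. Both arrays of chip 2 were the dimmest, with median signals of 110 (WT PBS 1) and 118 (KO PBS 2), against 151 to 169 elsewhere. Both KO DX arrays lay on chip 4, which held no KO PBS array, so DX in KO could not be read within a chip. Chip 5 held WT PBS 3, WT DX 3 and KO PBS 3. The Y-linked gene Eif2s3y was detected on WT PBS 3 and WT DX 2 (at least 8.52 on the log2 scale, against at most 4.94 on the other arrays), while Xist was detected on all arrays. The origin of the Eif2s3y signal was not tested. All 13 genes of a list of mesenchymal markers were measured, with 11 to 13 detected on each array.

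None of the 28 members passed the threshold (limma, Benjamini-Hochberg adjusted p under 0.05 over all 10623 genes) in any of the 5 comparisons. For DX against PBS in WT hosts the background was 0.621% of all genes (66), with 0.555% higher and 0.0659% lower, and in KO hosts it was 0% (0 genes). For the genotype difference of the DX effect it was 0%, for KO against WT in PBS 0.00941% (1 gene) and for KO against WT in DX 0%. At an unadjusted p under 0.05 the members numbered 4 in WT (14.3% of them, against 11.7% of all genes) and 2 in KO (7.14% against 5.36%). They numbered 2 for the genotype difference (against 4.69% of all genes), 2 for KO against WT in PBS (against 5.48%) and 2 in DX (against 6.7%). The number of arrays limits the precision of these values, and a p that misses the threshold does not show that the groups are alike.

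The median DX change of the 28 members was 0.11 in WT (log2, median of all genes -0.030) and 0.055 in KO (all genes -0.0063). Changes above 0 were seen for 15 of 28 members in each host, against 45% of all genes in WT and 48.7% in KO. A change of the same sign in both hosts was seen for 22 of 28 members (78.6%), against 58.2% of all genes. These comparisons share no arrays, but they share BeadChips. For the genes given in full, the signs were also read with the BeadChip as a fixed block. Cdh1, Krt8, Krt17, Krtdap, Lce1c, Pkp1 and Sprr1a then had opposite signs in the hosts. Cldn1, Krt10, Krt14 and Krt16 kept a shared sign, and Sprr1b gained a shared sign. Lor and Krt15 had opposite signs in either fit. Krt16 had DX differences of 1.45 in WT and 1.03 in KO. Lor and Krtdap had measured differences of 1.14 and 1.04 in WT. Neither was detected on a WT PBS array, and WT DX 3 was the only WT DX array on which either was detected. The bounds given with each gene are on group means and carry no sampling error. Krt82, a hair keratin, had the lowest measured difference in both hosts, at -0.75 and -0.66. Its WT groups did not overlap (7.47% of all genes were lower in DX in this way). Its probe was not detected in either DX group and passed the detection filter through PBS arrays alone. By group means it was at least 1.32-fold lower in WT and at least 1.29-fold lower in KO. The KO groups overlapped, with 4.80, 5.93 and 6.30 in KO PBS (2 of 3 detected) and 5.02 and 5.01 in KO DX.

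**Figure D1:**
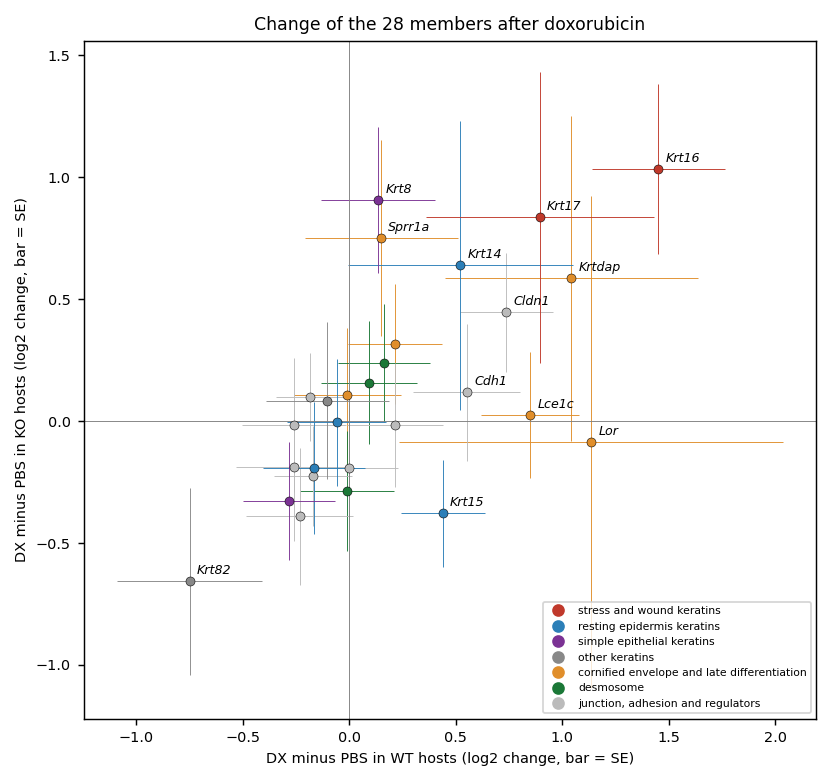
DX change of the 28 members in KO hosts (vertical axis) against that in WT hosts (horizontal axis), both in log2 units, with bars of 1 standard error and colours for the role. Krt16 lies farthest toward the upper right at 1.45 and 1.03, while Lor and Krtdap, not detected in WT PBS, are plotted at their measured differences with wide bars.

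Krt16, the wound keratin that pairs with Krt6, was higher on every DX array than on any PBS array. In WT PBS its log2 level was 6.96, 6.22 and 5.42 (mean 6.20 ± 0.77, SD, n = 3), and in WT DX 7.70, 7.33 and 7.92 (7.65 ± 0.30, n = 3). In KO PBS it was 6.60, 6.22 and 6.34 (6.39 ± 0.20, n = 3), and in KO DX 7.38 and 7.46 (7.42 ± 0.06, n = 2). The lowest DX array (WT DX 2) stood above the highest PBS array (WT PBS 1). Of all genes 1.23% (131) separated all 5 DX arrays from all 6 PBS arrays in this direction, and of the members only Krt16 did. The probe was detected on all 11 arrays.

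The Krt16 difference was 1.45 in WT (SE 0.312, 95% interval 0.76 to 2.14, 2.73-fold, limma adjusted p = 0.0717) and 1.03 in KO (SE 0.349, interval 0.26 to 1.80, 2.05-fold, adjusted p = 0.718). Neither passed, and in WT the gene ranked 104 of 10623 by p. The difference between hosts was -0.42 (SE 0.468, interval -1.45 to 0.61). In WT it passed under 6 of 24 other settings, among them no background correction (0.63, adjusted p = 0.0387), array weights (1.85, adjusted p = 0.00561) and the omission of WT PBS 1 (1.83, adjusted p = 0.0135), and its adjusted p ran from 0.00527 to 0.274. With the BeadChip as a fixed block the WT change was 1.79 (adjusted p = 0.104), and within chip 5 WT DX 3 stood 2.50 above WT PBS 3. Without the 2 arrays with Eif2s3y the WT change was 1.22 (adjusted p = 0.0681).

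Averaged over both hosts, a comparison added after the values were seen, Krt16 rose by 1.24 (SE 0.234, interval 0.73 to 1.76, 2.36-fold, adjusted p = 0.0480), and it was the only member to do so among 54 genes that rose (0.508% of all genes). Its call was lost under the chip block (1.39, adjusted p = 0.116), the replicate block (1.20, adjusted p = 0.0756) and in 8 of the 11 fits that left out 1 array (WT PBS 2, WT DX 1, WT DX 3 or any KO array, adjusted p from 0.0887 to 0.223). Without the 2 arrays with Eif2s3y it was 1.13 (adjusted p = 0.0229).

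Krt17, the stress keratin that is also made in hair follicles, was spread widely within groups. Its levels were 4.58, 5.50 and 5.16 in WT PBS and 4.59, 6.22 and 7.11 in WT DX. They were 4.54, 5.76 and 4.78 in KO PBS and 6.00 and 5.72 in KO DX. The WT groups overlapped, since WT DX 1 lay at the level of the lowest PBS arrays, and in KO the lower DX array lay just under KO PBS 2. The changes were 0.89 in WT (SE 0.535, adjusted p = 0.560) and 0.84 in KO (SE 0.598, adjusted p = 0.967). Under the chip block they were 1.71 and -0.29, so the sign in KO turned. Krt14, Krt16 and Krt17 are close relatives in sequence, and cross-hybridisation of their probes was not tested.

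**Figure D2:**
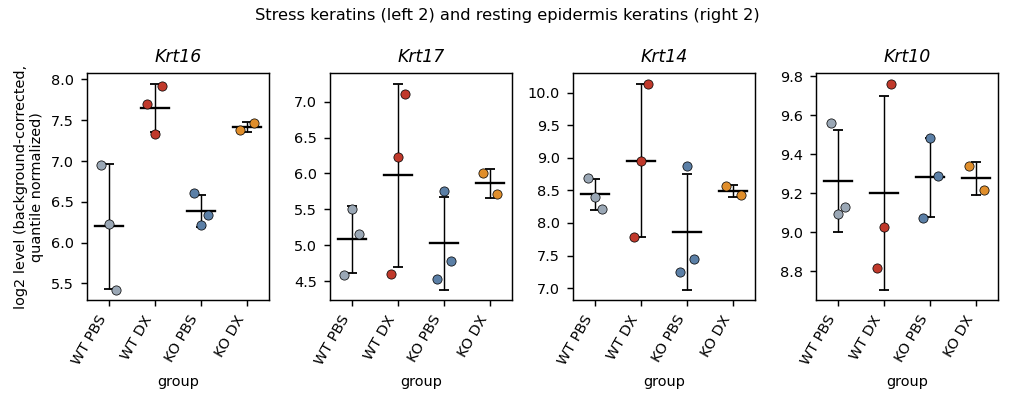
Log2 levels of Krt16, Krt17, Krt14 and Krt10 on each array (points) by group, with the group mean (line) and SD (bar). The 5 DX points of Krt16 lie at 7.33 or above and the 6 PBS points at 6.96 or below, while the groups of the other genes overlap or are wide.

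Among the keratins of resting epidermis, Krt14 had the widest range (2.89) and Krt10 the narrowest (0.95). Krt14 was 8.70, 8.39 and 8.22 in WT PBS, 7.79, 8.95 and 10.14 in WT DX, 7.25, 8.88 and 7.45 in KO PBS, and 8.56 and 8.43 in KO DX. WT DX 3 was the highest array, and WT DX 1 lay below all WT PBS arrays. The changes were 0.52 in WT (SE 0.529, adjusted p = 0.736) and 0.64 in KO (SE 0.592, adjusted p = 0.979). Without WT DX 3 the WT change of Krt14 was -0.069. Within chip 5, WT DX 3 exceeded WT PBS 3 by 1.92.

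Krt10, the keratin of the first suprabasal layers, was 9.56, 9.09 and 9.13 in WT PBS and 8.82, 9.03 and 9.76 in WT DX. It was 9.08, 9.48 and 9.29 in KO PBS and 9.34 and 9.22 in KO DX. All groups overlapped, and group means lay between 9.20 and 9.28. The changes were -0.059 in WT (interval -0.57 to 0.45) and -0.0045 in KO (interval -0.58 to 0.57).

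Krt15, a keratin of basal cells and of the follicle bulge, was dim, with 6 of 11 arrays detected. It was 5.31, 5.47 and 5.22 in WT PBS and 5.57, 5.52 and 6.24 in WT DX, and the WT groups did not overlap. In KO PBS it was 5.74, 5.27 and 5.54, and in KO DX 5.12 and 5.15, which were not detected and lay below all KO PBS arrays. The WT change was 0.44 (SE 0.197, adjusted p = 0.418) and KO DX was at least 1.15-fold lower than KO PBS (adjusted p = 0.964). Groups that did not overlap, with DX higher, numbered 4 members in WT against 6.26% of all genes, and with DX lower 3 members in KO against 13.7%. The genotype difference was -0.82 (SE 0.295, unadjusted p = 0.0181, adjusted p = 0.950), and without WT DX 3 it was -0.59. Krt80, a keratin of differentiating epithelia, ranged from 5.26 to 6.49 with DX differences of -0.17 in WT and -0.19 in KO.

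Array WT DX 3 held the highest level for 12 of 28 members (42.9%), against 13.6% of all genes. Of 8 genes of resting skin (Krt10, Krt14, Krt15, Krtdap, Lor, Pkp1, Pkp3 and Cdh1), 7 were highest there, Pkp1 being the exception. The mean deviation of these 8 genes from their own averages was 1.21 on WT DX 3. On the other arrays it ran from -0.42 (KO PBS 1) to 0.34 (KO PBS 2). WT DX 1 and WT DX 2, at -0.22 and -0.12, lay within the range of the PBS arrays. Groups accounted for 0.191 of the variance of this mean, so it varied mainly within groups.

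**Figure D3:**
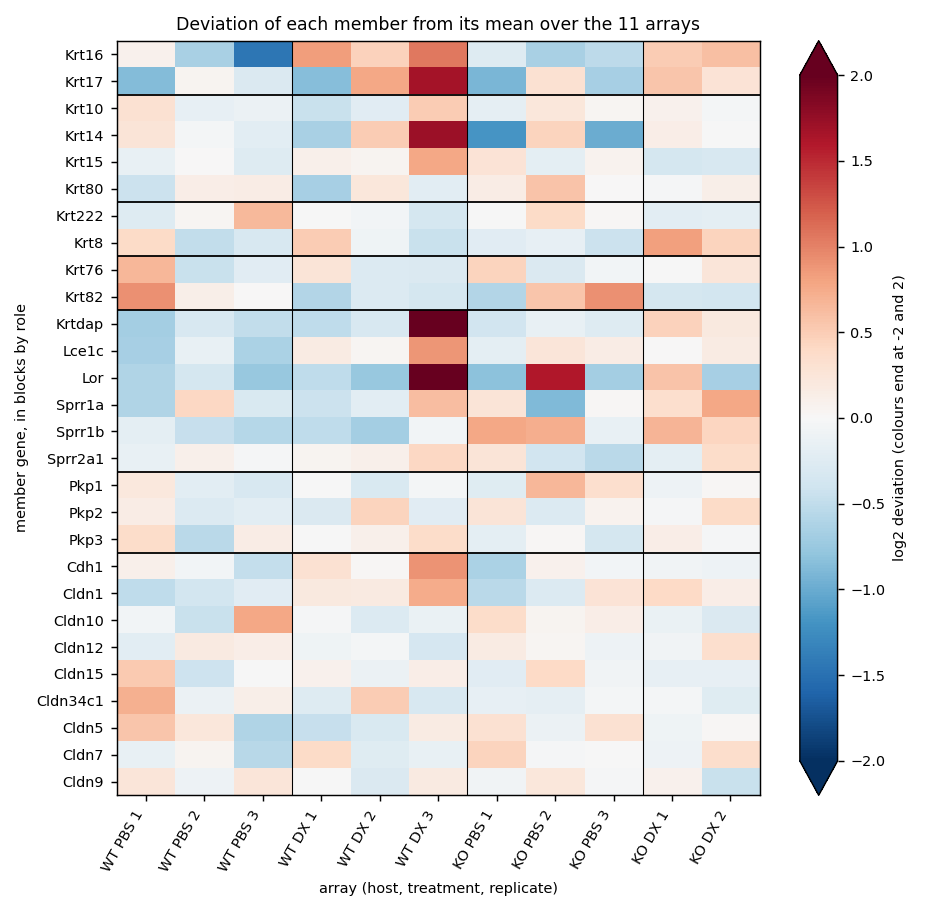
Deviation of each of the 28 members from its own mean over the 11 arrays (colour, log2 units, colours ending at -2 and 2), with genes in blocks by role and arrays in blocks by group. The column of WT DX 3 is the darkest, led by Lor, Krtdap and Krt14. All DX columns lie above the mean for Krt16 (by 0.46 or more), Cldn1 and Lce1c. PBS columns above the mean are WT PBS 1 for Krt16, KO PBS 3 for Cldn1, and KO PBS 2 and KO PBS 3 for Lce1c.

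Krt16 was above its mean on DX arrays with low and with high resting skin signal. On WT DX 1 and WT DX 2 the resting skin genes deviated by -0.22 and -0.12 while Krt16 stood 0.83 and 0.46 above its mean. On KO DX 2 the values were -0.12 and 0.59, and on WT DX 3 they were 1.21 and 1.06. Krt16 less the resting skin mean was -0.15 on WT DX 3, below WT PBS 1 (0.11) and KO PBS 1 (0.16). On the other DX arrays it ran from 0.40 to 1.05, above all PBS arrays. KO PBS 2, with the second highest resting skin mean, had Krt16 0.65 below its mean. With the resting skin mean as a covariate, a fit with 1 degree of freedom less, the Krt16 change was 1.33 in WT (SE 0.344, adjusted p = 0.224) and 1.01 in KO (SE 0.352, adjusted p = 0.666), against 1.45 and 1.03 without it. The change averaged over hosts was then 1.17 (adjusted p = 0.109).

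WT DX 3 and KO PBS 2, the arrays with the most resting skin signal, had Krt17 1.66 and 0.31 above its mean, and KO PBS 1, with the least, had it 0.92 below. Other arrays did not follow this order. WT DX 2 and KO DX 2, both with a resting skin mean of -0.12, had Krt17 0.77 and 0.27 above its mean, and WT PBS 1, at -0.025, had it 0.87 below. With the covariate the Krt17 difference in WT was 0.29 against 0.89 without it (SE 0.407, adjusted p = 0.888), and in KO it was 0.70 (SE 0.416, adjusted p = 0.872).

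**Figure D4:**
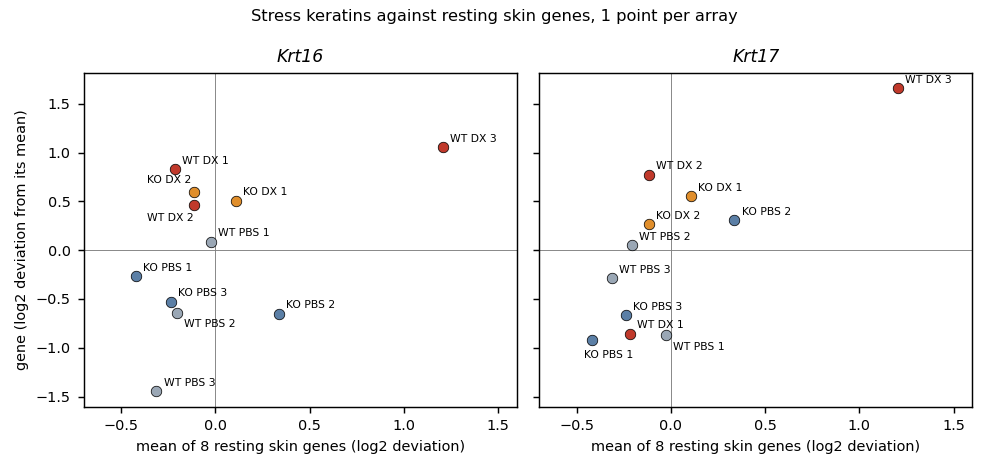
Deviation of Krt16 (left) and Krt17 (right) from the gene's mean, against the mean deviation of 8 resting skin genes, 1 point per array, in log2 units. All DX arrays lie above 0 for Krt16 whether their resting skin mean is below 0 (WT DX 1, WT DX 2, KO DX 2) or above (KO DX 1, WT DX 3).

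Of the cornified genes, Lor and Krtdap were near background on most arrays, each detected on 3 of 11. Sprr1b was detected on 4, Sprr1a on 8, Lce1c on 9 and Sprr2a1 on all 11. Lor encodes loricrin, the main protein of the cornified envelope. It was detected on WT DX 3 (8.33), KO PBS 2 (6.96) and KO DX 1 (5.92), that is in 3 of the 4 groups. The other 8 arrays lay between 4.53 and 5.01 and were not detected. WT PBS held no detected array, so WT DX was at least 1.41-fold higher on average (measured means 5.92 ± 2.09 and 4.78 ± 0.21, n = 3 each, adjusted p = 0.670). The measured difference of 1.14 was -0.069 without WT DX 3, and within chip 5 that array exceeded WT PBS 3 by 3.73.

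Krtdap, a secreted protein of differentiating keratinocytes, followed the same array. It was 7.67 on WT DX 3 and 5.66 and 5.40 on the KO DX arrays. These were its only detected values, so it passed the detection filter through DX arrays alone. Its other WT DX values were 4.69 and 4.89, and the PBS arrays ran from 4.52 to 5.06. In KO the groups did not overlap (13.3% of all genes were higher in this way), and DX was at least 1.09-fold higher (adjusted p = 0.986), while the measured difference of 0.59 turned to -0.12 under the chip block and -0.13 in the authors' deposited table. In WT DX was at least 1.26-fold higher (adjusted p = 0.535), and the measured change of 1.04 was 0.083 without WT DX 3.

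Lce1c, a late cornified envelope protein, was 5.14, 5.65 and 5.17 in WT PBS and 5.98, 5.84 and 6.69 in WT DX. It was 5.60, 6.05 and 5.95 in KO PBS and 5.82 and 5.97 in KO DX. The WT groups did not overlap, and the KO groups did. The WT change was 0.85 (SE 0.231, adjusted p = 0.167), 0.59 without WT DX 3 (adjusted p = 0.443) and 1.44 under the chip block, where it passed (adjusted p = 0.0380). The KO difference was 0.025, and -0.65 under the chip block. The genotype difference of -0.82 (SE 0.346, adjusted p = 0.992) did not pass, nor did its value of -2.09 under the chip block (adjusted p = 0.282).

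**Figure D5:**
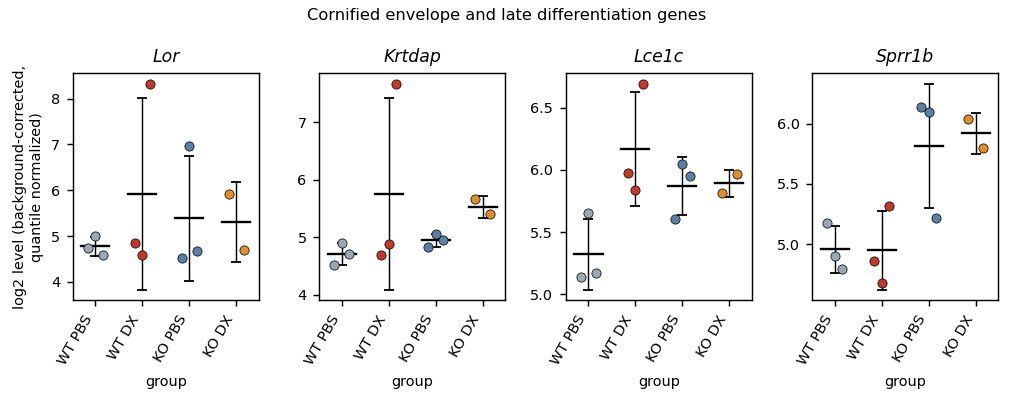
Log2 levels of Lor, Krtdap, Lce1c and Sprr1b on each array (points) by group, with the group mean (line) and SD (bar). Single arrays carry Lor (8.33 on WT DX 3, 6.96 on KO PBS 2), and Sprr1b is the gene in which all WT points lie at 5.31 or below with 4 of 5 KO points at 5.80 or above.

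Sprr1b, a small proline-rich envelope protein, was detected in KO hosts only, so it passed the detection filter through KO arrays alone. Its detection by host and the bounds below are therefore not independent of that filter. It was 5.17, 4.90 and 4.80 in WT PBS, 4.86, 4.68 and 5.31 in WT DX, 6.13, 6.09 and 5.22 in KO PBS, and 6.04 and 5.80 in KO DX. No WT array was detected, against 2 of 3 in KO PBS and both in KO DX. KO was at least 1.32-fold higher in PBS (measured difference 0.86, SE 0.249, adjusted p = 0.724) and at least 1.51-fold in DX (0.97, SE 0.279, adjusted p = 0.493). In PBS it was the only member without overlap between the hosts (4.9% of all genes were higher in KO in this way and 4.48% lower), and in DX the only member higher in KO (15.4% of all genes). KO PBS 3 lay below 1 WT DX array. Averaged over treatments, a comparison added after the values were seen, the difference was 0.91 (SE 0.187, adjusted p = 0.161) and did not pass, while 4 of all genes did (0.0188% higher and 0.0188% lower).

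Within chips, KO PBS 3 exceeded WT PBS 3 by 0.42 in Sprr1b on chip 5 and KO PBS 2 exceeded WT PBS 1 by 0.92 on chip 2. Its relative Sprr1a did not follow. It was 5.17, 6.18 and 5.46 in WT PBS, 5.33, 5.55 and 6.38 in WT DX, 6.02, 4.89 and 5.78 in KO PBS, and 6.10 and 6.53 in KO DX. KO DX exceeded KO PBS by 0.75 (SE 0.401, adjusted p = 0.958) without overlap, and the sign turned under the chip block (-0.077). KO minus WT in PBS was -0.040. Sprr2a1, of the same family, was detected on all 11 arrays at 7.85 to 8.80 with DX differences of 0.22 in WT and 0.32 in KO.

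As a list the 6 cornified genes had a median DX change of 0.53 in WT (5 above 0) and 0.21 in KO (5 above 0), with 0 past the threshold in either. Without WT DX 3 the WT median was 0.0066 with 3 above 0. The 8 resting skin genes had a WT median of 0.48, and 0.0013 without that array, and a KO median of 0.057. Krt16 kept a WT change of 1.31 without it (SE 0.352, adjusted p = 0.256), and Krt17 one of 0.33. Both stress keratins were highest on WT DX 3, as were 4 of 6 cornified genes.

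Promoters of the cornified genes are shown because Lor, Krtdap and Sprr1b differed in their pattern over the arrays and Krt14 stands for the basal layer. The sequences are those of RefSeq on GRCm38.p6, 250 bases before to 50 after the annotated start, written 5′ to 3′ on the gene's strand, and 18 of 28 members had such a window. Capitals mark matches, on either strand, to the letters TGANTCA (AP-1, a factor family of stress and keratinocyte differentiation) or TATAAA. GCCNNNGGC (AP-2, a factor of epidermal genes) was also searched, and no match of different motifs overlapped in these windows. The windows are chr3:92083093-92083392 (minus strand) for Lor, chr7:30787655-30787954 (plus) for Krtdap, chr3:92438730-92439029 (minus) for Sprr1b and chr11:100205981-100206280 (minus) for Krt14.
Lor: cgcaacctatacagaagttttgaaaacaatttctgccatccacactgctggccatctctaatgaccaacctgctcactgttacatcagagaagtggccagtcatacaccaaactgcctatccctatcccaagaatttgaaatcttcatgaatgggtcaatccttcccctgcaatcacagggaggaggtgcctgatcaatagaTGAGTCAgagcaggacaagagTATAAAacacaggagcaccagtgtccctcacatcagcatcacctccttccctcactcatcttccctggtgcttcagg
Krtdap: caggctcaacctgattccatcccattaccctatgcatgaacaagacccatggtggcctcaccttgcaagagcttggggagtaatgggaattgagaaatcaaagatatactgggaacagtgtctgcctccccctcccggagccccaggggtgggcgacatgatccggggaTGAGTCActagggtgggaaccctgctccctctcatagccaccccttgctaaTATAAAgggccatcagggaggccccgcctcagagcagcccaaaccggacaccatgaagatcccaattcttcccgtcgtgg
Sprr1b: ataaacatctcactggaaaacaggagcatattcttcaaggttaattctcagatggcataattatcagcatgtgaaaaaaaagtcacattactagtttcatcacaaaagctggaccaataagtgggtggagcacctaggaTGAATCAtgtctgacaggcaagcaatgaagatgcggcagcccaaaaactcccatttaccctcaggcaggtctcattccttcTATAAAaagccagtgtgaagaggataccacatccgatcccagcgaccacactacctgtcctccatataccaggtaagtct
Krt14: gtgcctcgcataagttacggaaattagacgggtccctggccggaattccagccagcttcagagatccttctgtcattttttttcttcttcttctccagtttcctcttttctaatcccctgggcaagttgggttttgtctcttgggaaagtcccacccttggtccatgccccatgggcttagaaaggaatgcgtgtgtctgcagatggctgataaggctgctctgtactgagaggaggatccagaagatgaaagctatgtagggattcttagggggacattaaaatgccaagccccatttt

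The AP-1 letters were in 4 of 6 cornified promoters, 48 bases upstream of the start in Lor, 81 in Krtdap, 111 in Sprr1b, and 116 and 146 in Sprr1a. They were in 5 of 18 member windows, Cldn15 being the other, and in 7.81% of 32851 windows of the same length. TATAAA was in the same 4 cornified windows and in 7 of 18 members, against 13.6% of all windows. The AP-2 letters were in 2 of 18 members (Cldn12 and Cldn15) and 0 of 6 cornified genes, against 16.6% of all windows. The AP-1 match reads TGAGTCA in Lor and Krtdap but TGAATCA in Sprr1b. A match describes the letters alone.

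Among the promoters with AP-1 and TATAAA letters, Lor and Krtdap were highest on WT DX 3, Sprr1b was highest on KO PBS 1, and Sprr1a on KO DX 2. Krt14, with no match to the 3 motifs in its window, was highest on WT DX 3 as Lor was.

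Krt8, the keratin of simple epithelia, was dim and detected on 4 arrays: both KO DX arrays, 1 WT PBS array and 1 WT DX array. WT DX 1 lay above KO DX 2. It was 5.65, 4.77 and 4.95 in WT PBS, 5.78, 5.18 and 4.82 in WT DX, 5.04, 5.11 and 4.84 in KO PBS, and 6.09 and 5.72 in KO DX. KO DX lay above all KO PBS arrays, none of which was detected, and was at least 1.41-fold higher (measured difference 0.91, SE 0.300, adjusted p = 0.718). The WT change was 0.14, and the genotype difference was 0.77 (SE 0.402, adjusted p = 0.992). With the resting skin mean as a covariate the KO change was 0.93. Krt222, a keratin-like gene, ranged from 4.91 to 5.92 with no DX array detected, and DX was at least 1.06-fold lower in each host (measured differences -0.28 and -0.33, adjusted p = 0.653 and 0.970). Krt76, an oral keratin, was detected on 2 arrays, both PBS.

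No plakophilin passed the threshold. Pkp2, found also in heart muscle, and Pkp3 were detected on all 11 arrays, with DX differences of 0.090 and 0.16 in WT and 0.16 and 0.24 in KO. The 3 probes of Pkp2 differed in sign, with WT changes of 0.090, -0.15 and -0.25. Pkp1, the plakophilin of suprabasal epidermis, was 5.54, 5.12 and 5.01 in WT PBS, 5.32, 5.02 and 5.29 in WT DX, 5.09, 5.99 and 5.66 in KO PBS, and 5.23 and 5.36 in KO DX. It was detected on 2 KO PBS arrays and 1 KO DX array, so it passed the detection filter through KO arrays alone. KO PBS was at least 1.12-fold higher than WT PBS (adjusted p = 0.998).

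Of the 9 junction genes, 3 had a WT change above 0 (median -0.17) and 3 a KO change above 0 (median -0.016). Cldn1, the claudin of the epidermal tight junction, was 4.98, 5.13 and 5.26 in WT PBS, none detected, and 5.68, 5.68 and 6.23 in WT DX, all detected. It was 4.96, 5.22 and 5.76 in KO PBS and 5.89 and 5.63 in KO DX, where the groups overlapped. WT DX was at least 1.36-fold higher (measured change 0.74, SE 0.218, adjusted p = 0.208), and the measured change was 0.55 without WT DX 3 and 0.90 without the 2 arrays with Eif2s3y. The KO change was 0.45 (SE 0.244, adjusted p = 0.958).

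Cdh1 was 7.07, 6.92 and 6.49 in WT PBS, 7.27, 7.0 and 7.87 in WT DX, 6.34, 7.06 and 6.92 in KO PBS, and 6.91 and 6.87 in KO DX. The PBS and DX groups overlapped in both hosts, while KO DX lay below all WT DX arrays. The WT change was 0.55 (SE 0.251, adjusted p = 0.426), and 1.23 under the chip block, where it passed (adjusted p = 0.0480). KO minus WT in DX was -0.49 (SE 0.281, adjusted p = 0.815). Cldn5, the claudin of blood vessel endothelium, ranged from 7.93 to 9.09 with DX differences of -0.26 in WT and -0.19 in KO. Cldn12, at 10.58 to 11.25, had the narrowest range of all members (0.67), and Cldn7, Cldn9, Cldn10, Cldn15 and Cldn34c1 had DX differences of -0.39 to 0.21 in either host.

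Between hosts, the members had medians of 0.028 in PBS (16 of 28 higher in KO against 50.1% of all genes, whose median was 0.00035) and -0.078 in DX (12 higher in KO against 53.3% of all genes, whose median was 0.017). In DX, 3 members lay lower in KO without overlap (Krt15, Cdh1 and Cldn15), against 11.7% of all genes. Without WT DX 3 the DX median was 0.093 with 19 of 28 above 0. Krt16 did not separate the hosts, at 0.19 in PBS (SE 0.312, interval -0.50 to 0.87) and -0.23 in DX (SE 0.349, interval -1.0 to 0.54). Krt15 was at least 1.38-fold lower in KO DX than in WT DX (adjusted p = 0.615).

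Keratinocyte genes outside the members gave the same count. Of 21 measured genes of a list of 67 further keratinocyte genes, 0 passed in any comparison, with a median DX change of 0.22 in WT (13 above 0) and 0.056 in KO. The smallest p in both hosts was that of Asprv1, a protease of the granular layer, which was at least 1.71-fold higher in WT DX (measured means 6.19 and 5.10, adjusted p = 0.0746), with no WT PBS array detected, and differed by 1.15 in KO (SE 0.267, adjusted p = 0.395). It was 5.31, 4.86 and 5.13 in WT PBS, 5.93, 5.86 and 6.79 in WT DX, 5.51, 5.38 and 5.14 in KO PBS, and 6.67 and 6.31 in KO DX, so that all DX arrays lay above all PBS arrays. Dmkn, a secreted protein of the upper epidermis, had DX differences of 1.40 in WT (adjusted p = 0.122) and 0.43 in KO, and was also highest on WT DX 3 (8.12).

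Genes of activated keratinocytes were measured for 10 of 30 listed, of which 4 rose in WT (against 0.555% of all genes, S100a9, S100a8, Slpi and Lcn2) and 0 in KO. Slpi and Lcn2 were named after their values were seen. The leading S100a9 and S100a8 rose by 3.17 (adjusted p = 3.97e-04) and 2.72 and are neutrophil products as well. Of 9 measured neutrophil genes, 4 rose in WT. Lcn2 is in this list and in that of activated keratinocytes, so the lists overlap and their counts are not independent. The mean deviation of the neutrophil list was 0.22 to 1.11 on the DX arrays and -1.25 to 0.11 on the PBS arrays. This list mean and Krt16 were both higher on every DX array than on any PBS array. The part of neutrophils in the Krt16 change was not tested. Of 17 measured muscle genes 4 rose in WT and 13 did not pass, against 0.555% of all genes that rose. The mast cell and adipocyte lists stood 1.62 and 1.02 above average on WT DX 3, the array with the most resting skin signal. On that array the hair follicle and sebaceous gland list stood at -0.17 and the dermal fibroblast list at 0.055. The adipocyte list was also at 0.85 on WT DX 1, where the resting skin mean was -0.22. The muscle list was at 1.48 on WT DX 1 and 1.00 on WT DX 3.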

How the data were processed

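Total RNA of 11 mouse tumour samples was measured on Illumina bead arrays. The deposited table holds non-normalized probe signal intensities and a detection p-value for each probe and array, per the file headers. The authors' deposited table of log2 values was made by the submitters, whose processing notes name Partek without its steps. Compared with the intensities, it matched log2 quantile values from which the BeadChip had been removed (correlation 0.9999998 over row-centred values), and 2 of its columns were means of other replicates, so it served as an alternative without those columns. Probe names come from GEO's platform annotation, which as used here gave a symbol for 16505 of 45281 probes.

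Intensities were corrected and quantile normalized with neqc in limma 3.58.1 (R 4.3.3), with an offset of 16 and log2 transformation, and background inferred from the detection p-values. Probes with a detection p under 0.05 on 2 or more arrays were kept (20433 of 45281), and the brightest kept probe stood for a gene (10623 genes). One linear model with 4 group means over 11 arrays gave all comparisons (7 residual and 4.04 prior degrees of freedom), adjusted by Benjamini-Hochberg over all genes with a threshold of 0.05. All p-values in the text are from this limma fit unless a setting is named. A group without a detected array is given as a bound on the ratio of group means. Its arrays were raised to at least the lowest detected level, while the other group kept its measured values. Such a bound does not carry the spread between arrays and is not a confidence limit. The scripts were tested on simulated data. Alternatives covered background correction, scaling, probe filters, BeadChip and replicate blocks, array weights, a covariate and the omission of each array. The members and lists were chosen with earlier results of these data known. Sprr1b and Pkp1 passed the detection filter through KO arrays alone and Krtdap through DX arrays alone. Krt82, Krt76 and Krt222 passed through PBS arrays alone. For these genes, detection by group is not independent of the filter. Genes given in full were those past the threshold, the 3 members of smallest p in each comparison and a set of keratin and barrier genes. Same-numbered replicates of different groups had correlations of deviations between -0.291 and 0.304, so the numbers do not pair the samples.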

Additional observations from a re-analysis of the deposited data

Results flagged for a closer look

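The DX difference of Krt15 had opposite signs in the hosts. Every WT DX array lay above the WT PBS mean (by 0.19 to 0.90) and both KO DX arrays lay below the KO PBS mean (at -0.39 and -0.36 from it). The genotype difference was -0.82 (log2, SE 0.295) with a limma adjusted p of 0.950, so it did not pass over all genes. Neither KO DX array was detected for Krt15.

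A probe annotated to both Flg, the filaggrin gene of the granular layer, and Fgfr1 was left out because it names more than 1 gene. It read 6.85 on WT DX 3 and was not detected on the other arrays, where it ran from 4.51 to 4.88. WT DX 3 is also the array with the highest resting skin mean (1.21). Which gene gave the signal was not tested. Groups of 2 or 3 arrays were not tested for outlying samples.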

How the results depend on the processing

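Members past the threshold for DX in WT numbered 0, against 1 (Krt16) without background correction, with array weights or with a trended robust prior, 2 (Cdh1, Lce1c) with the BeadChip as a fixed block and 10 in the authors' table. Leaving out 1 array gave 0 to 1 (Krt16, without WT PBS 1 or WT DX 2). In the authors' table they numbered 7 for DX in KO, 12 for the genotype difference, 1 for KO against WT in PBS and 13 in DX, where it called 2793, 3749, 4119, 427 and 4285 of all genes in the 5 comparisons. That table had the BeadChip removed before the test.

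The median change of the members in WT ran from -0.049 (without WT DX 3) to 0.23 when 1 array was left out. In KO it was 0.20 under median scaling, for the genotype difference -0.32 and for KO against WT in PBS 0.18 under the chip block. In DX it was 0.068 under median scaling and 0.045 under the replicate block, and ran from -0.12 to 0.093 (without WT DX 3) when 1 array was left out. Lor in WT ran from -0.069 (without WT DX 3) to 1.80 over left-out arrays. Of 70 values (14 genes in 5 comparisons), 20 had the other sign under the chip block and 21 in the authors' table. For DX in KO the chip block and the authors' table gave Krt17 -0.29 and -0.12, Sprr1a -0.077 and -0.0075, Krtdap -0.12 and -0.13, Lce1c -0.65 and -0.19, and Cdh1 -0.26 and -0.13. For DX in WT they gave Krt10 0.31 and 0.27, Krt8 -0.024 and -0.014, and Pkp1 0.41 and 0.12. For the genotype difference they gave Krt14 -1.37 and -1.14 and Sprr1a -0.36 and -0.11, and for KO against WT in DX Sprr1a -0.15 and -0.045. Krt14 in PBS was 0.034 in the authors' table. The cause was not tested.

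Krt16 averaged over hosts lost its call under the chip block (1.39), the replicate block (1.20) and the covariate (1.17), and ran from 1.05 to 1.43 when 1 array was left out. Sprr1b averaged over treatments passed in the authors' table (0.24) and with array weights (0.94). With the replicate number as a block, 63, 0, 0, 0 and 5 of all genes passed in the 5 comparisons and 0 members did, and the numbers do not pair the samples. Dim probes limit what the signal over background can show.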
